A study of Mus musculus with 6 samples.

Results

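The genes described here encode the enzymes of cholesterol and fatty acid synthesis and the proteins that regulate them. Their RNA was measured in mouse colonic mucosa labelled as knockout for the kinase p38a or as wild type. They were chosen by gene symbol, not by their values, and number 30 of which 29 were measured, among 12437 genes tested in all. Acat2, a thiolase that makes acetoacetyl-CoA, had no probe set named for it alone and was not analysed here. For each gene the brightest of its probe sets over all 6 arrays was used, and all 29 lay above the filter on dim signals. The samples were colonic mucosa of C57BL/6 mice, untreated, with intestinal epithelial cells given as the cell type. Total RNA of 3 samples labelled p38a knockout and 3 labelled wild type was hybridised to Affymetrix arrays, and each group carries the letters A, B and C. The sources used here do not give the extent of the deletion, the cells it was driven in, or the age and sex of the mice. Nor do they say whether the samples came from separate animals, so the p-values reflect the spread among these 6 samples alone, and that spread may be technical. Values are log2(signal + 16) after quantile normalization, unless deposited signals are named, and differences are labelled knockout minus wild type.

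Cholesterol is built from acetyl-CoA through mevalonate, isoprenoid units and squalene to lanosterol, which a series of enzymes then trims to cholesterol. Fatty acids are built from the same acetyl-CoA by carboxylation, chain elongation and desaturation. Both routes are driven by the transcription factors SREBP-2 and SREBP-1, encoded by Srebf2 and Srebf1. Insig proteins hold the SREBP precursors in the endoplasmic reticulum when sterols are plentiful. In the intestine the epithelium makes sterols and fatty acids for its own renewing membranes.

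No member passed the test between the groups in limma at an adjusted p of 0.05, where the adjusted p of the 29 members ran from 0.902 to 0.991. That count of 0 of 29 stands beside 0% of all 12437 genes, none of which passed either. Of the 29 members 17 were higher and 12 lower in the arrays labelled knockout, with a median log2 difference of 0.03, against 0.02 over all genes tested, of which 53.2% were higher. This split depends on the scaling: on the deposited signals 27 of 29 members were higher and 90.5% of all genes, with medians of 0.50 and 0.43, and with arrays centred on their medians 24 were higher and 73.5% of all genes, with medians of 0.26 and 0.20. It went the other way without the array labelled knockout C, with 11 members higher and 18 lower (median -0.044, and 54.0% of all genes higher). It also did so with each array's ratio of 3' to 5' Gapdh signal, a measure of RNA quality, as covariate (12 and 17, and 48.7% of all genes higher). With array weights the split was 14 and 15, and 54.5% of all genes were higher. The widest differences were -0.63 for Insig1, -0.59 for Me1 and 0.56 for Scd2. The unadjusted p was under 0.05 for 1 member, Insig1 (3.45% of the members, against 3.94% of all genes). The groups did not overlap for 3 members (10.3%, against 9.06% of all genes). Acss2 and Scd1 were the 2 members with every array labelled knockout above every wild-type array, a pattern seen in 4.68% of all genes. Insig1 was the 1 member with every such array below, a pattern seen in 4.38% of all genes. These shares lie near the background.

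The intervals show how large a change these arrays leave possible under quantile normalization. On the deposited signals Acss2 differed by 0.86 (SE 0.31), Fdps by 0.86 (SE 0.38) and Insig1 by -0.13 (SE 0.24). The median of all genes there was 0.43, so the bounds hold for the normalized values only. The 95% interval of the log2 difference lay within a 2-fold change in either direction for 26 of 29 members (89.7%), against 81.7% of all genes tested. It lay within a 1.5-fold change for 15 members (51.7%), against 31.9% of all genes. The median SE of the members was also smaller, 0.17 against 0.22 over all genes. The members whose interval reached past 2-fold were Insig1 (-1.13 to -0.14), Scd2 (-0.003 to 1.11) and Me1 (-1.41 to 0.23). An array signal from bulk mucosa cannot tell fewer cells of a type from less RNA per cell, so that changes within a minority of cells are not bounded by these intervals.

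**Figure D1:**
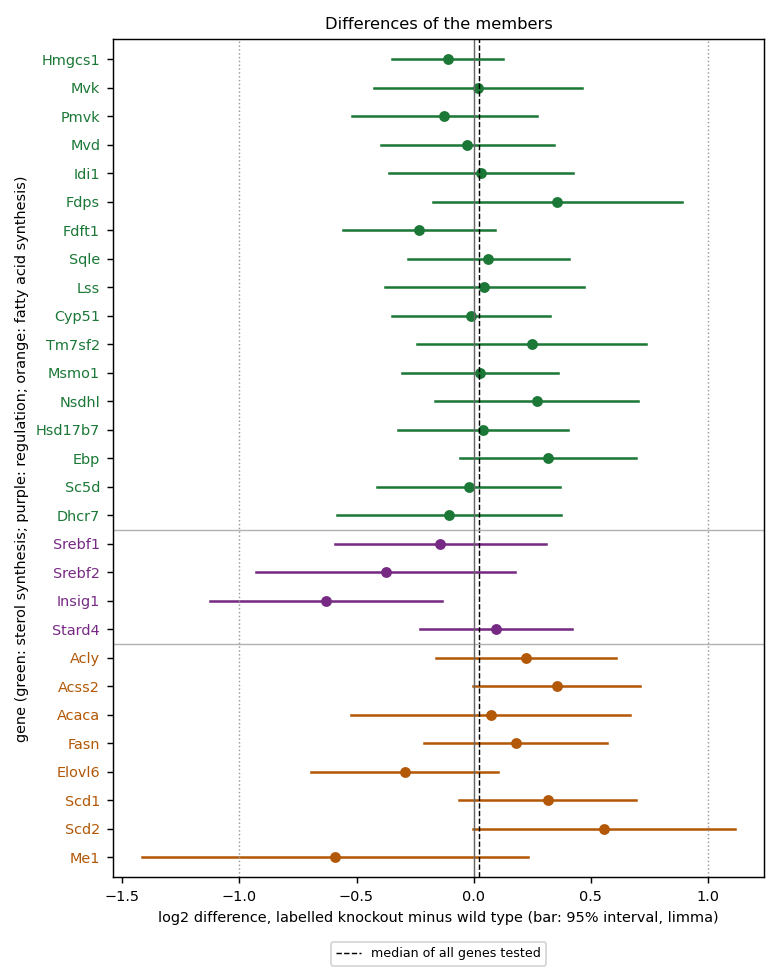
Log2 difference of each of the 29 members, labelled knockout minus wild type (points), with the 95% interval from limma (bars), by role; dotted lines mark a 2-fold change and the dashed line the median of all genes tested, 0.02. The interval of Insig1 is the 1 that does not reach 0.

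The arrays differed in brightness and in a measure of RNA quality along with the genotype label. Deposited signals averaged 192 to 222 in the arrays labelled knockout (a mean trimmed by 2% at each end) and 188 in wild type B, but 141 in A and 117 in C of the wild type. Gapdh control probes at the 3' end read 0.859 to 0.954 times those at the 5' end in the arrays labelled knockout, and this ratio is known to be larger in degraded RNA. For wild type B it was 0.989, for A 1.10 and for C 1.45. The same ratio for beta-actin control probes was 1.82 to 2.27 in the arrays labelled knockout. In wild type B it was 2.24, within that range, in A 2.40 and in C 3.25. The targeted gene Mapk14, which encodes p38a, did not show the deletion. Its brightest probe set read 9.72, 9.91 and 9.73 in knockout-labelled arrays A to C and 9.31, 9.44 and 9.37 in wild type A to C. The difference was 0.41 (SE 0.14, limma adjusted p = 0.902), with the arrays labelled knockout higher. Where its probe sets lie against the deleted part is not known here, so Mapk14 does not check the labels, and the knockout arrays are called by their label.

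The enzymes from acetyl-CoA to squalene showed small differences in both directions. Hmgcs1, the synthase that makes HMG-CoA, read 12.79, 12.67 and 12.73 in knockout-labelled arrays A to C and 12.95, 12.73 and 12.85 in wild type A to C. The ranges overlapped, and the difference was -0.11 (SE 0.10, limma adjusted p = 0.902). On the deposited signals it was 0.21. The normalized interval, -0.35 to 0.13, was the narrowest of the members. The 3 enzymes that phosphorylate mevalonate and turn it into isopentenyl pyrophosphate differed by 0.02 (Mvk), -0.12 (Pmvk) and -0.03 (Mvd). Idi1, which isomerises that unit, differed by 0.03 with an interval of -0.36 to 0.42.

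Fdps, which makes farnesyl pyrophosphate, stood highest among these enzymes. It read 10.24, 10.17 and 10.60 in knockout-labelled arrays A to C and 9.97, 10.41 and 9.56 in wild type A to C. Wild type B lay among the arrays labelled knockout, while wild type A and C lay below them all. The difference was 0.36 (SE 0.23, limma adjusted p = 0.902), 1.28-fold, and it was 0.14 without wild type C, 0.23 without the array labelled knockout C and 0.57 without wild type B. Fdft1, the squalene synthase that uses farnesyl pyrophosphate next, had a lower mean in the arrays labelled knockout. It read 11.22, 11.18 and 11.33 in the arrays labelled knockout and 11.46, 11.27 and 11.69 in wild type A to C, a difference of -0.23 (SE 0.14, limma adjusted p = 0.902). The difference was -0.12 without wild type C and 0.22 on the deposited signals. For Fdft1 too, wild type B was the wild-type array that reached into the other group. Both values were small against wild type B alone, at -0.07 for Fdps and -0.03 for Fdft1, and the intervals of both genes with all arrays held 0.

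The 10 enzymes from squalene to cholesterol differed by -0.10 to 0.32. Sqle, the squalene epoxidase, differed by 0.06 (interval -0.28 to 0.41), Lss, the lanosterol synthase, by 0.04 and the lanosterol demethylase Cyp51 by -0.01 (interval -0.35 to 0.33). Msmo1, a methylsterol oxidase, differed by 0.03, Hsd17b7, a ketosteroid reductase, by 0.04, the desaturase Sc5d by -0.02 and Dhcr7, the reductase of the last step, by -0.10. The sterol reductase Tm7sf2 differed by 0.25 (SE 0.21) and the dehydrogenase Nsdhl by 0.27 (SE 0.19), both with overlapping groups. Without the array labelled knockout C Tm7sf2 read 0.07 and without wild type C 0.14, and Nsdhl read 0.15 without wild type A. Ebp, a sterol isomerase, had the smallest p of the sterol enzymes. It read 10.52, 10.37 and 10.73 in knockout-labelled arrays A to C and 10.13, 10.46 and 10.09 in wild type A to C. Wild type B again fell inside the range of the arrays labelled knockout, and the difference was 0.32 (SE 0.16, limma adjusted p = 0.902).

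As a group, 10 of the 17 sterol enzymes measured were higher and 7 lower, with a median of 0.03. None had separate groups, and all 17 intervals lay within a 2-fold change. The median of these genes' deviations from their own 6-array means was -0.03, -0.04 and 0.16 in knockout-labelled arrays A to C. In wild type A to C it was 0.04, 0.03 and 0.01, so that the array labelled knockout C stood highest and the other 2 of its group lowest. The array labelled knockout C was the highest of the 6 arrays for 11 of the 29 members and for 12.2% of all genes.

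**Figure D2:**
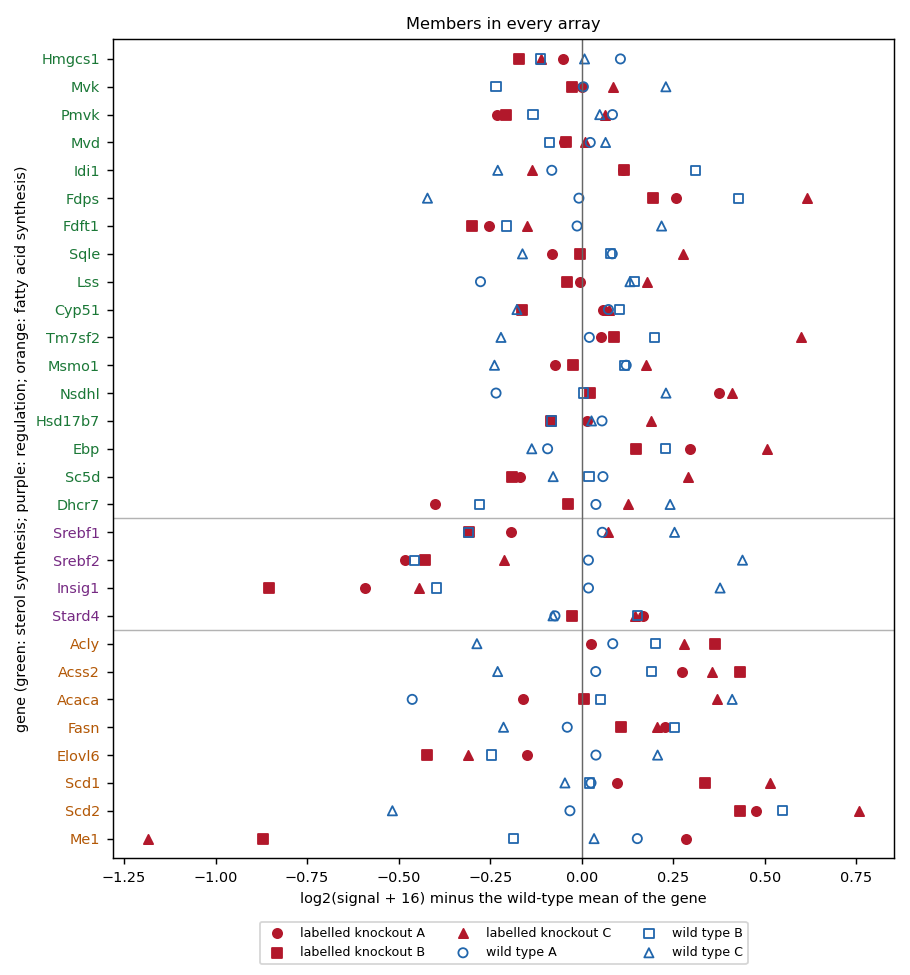
Value of each member in each of the 6 arrays, as log2(signal + 16) minus the wild-type mean of that gene; filled red symbols are the arrays labelled knockout and open blue symbols wild type, with circles for A, squares for B and triangles for C. The colours separate for Insig1, Acss2 and Scd1 and overlap for the other 26 members.

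The regulators included the member with the smallest p. Insig1, whose product retains the SREBP precursors and whose own gene is a known SREBP target, read 10.06, 9.80 and 10.21 in knockout-labelled arrays A to C. In wild type A to C it read 10.67, 10.26 and 11.03. The groups did not overlap, but the gap between the array labelled knockout C and wild type B was narrow. The means were 10.02 ± 0.21 and 10.65 ± 0.39 (SD, n = 3 each), a difference of -0.63 (SE 0.22), 1.55-fold lower, which did not pass in limma over all genes (adjusted p = 0.902). The deposited signals, before scaling, were 1400.5, 972, 1366 for the arrays labelled knockout and 1337, 1337 and 1383 for wild type A to C. On those signals the groups overlapped and the difference was -0.13 (SE 0.24), while the median of all genes was 0.43. On the deposited scale wild type A and C, the dimmer arrays, thus read Insig1 about as high as the other arrays did, apart from the array labelled knockout B, which was lower.

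Srebf2, which encodes SREBP-2, read 8.30, 8.36 and 8.57 in knockout-labelled arrays A to C and 8.80, 8.33 and 9.22 in wild type A to C. Wild type B lay inside the range of the arrays labelled knockout, and the difference was -0.38 (SE 0.24, limma adjusted p = 0.902), but 0.14 on the deposited signals. It was -0.16 without wild type C and -0.60 without wild type B. A second probe set of Srebf2 went the other way, by 0.15 (SE 0.18), with the groups apart. Srebf1, which encodes SREBP-1, read 9.19, 9.08 and 9.46 in the arrays labelled knockout and 9.44, 9.08 and 9.64 in wild type A to C. The groups overlapped, with a difference of -0.14 (SE 0.20, limma adjusted p = 0.906), but 0.38 on the deposited signals. Stard4, a cytosolic sterol carrier, differed by 0.10 (SE 0.14). Of these 4 genes 1 was higher and 3 were lower.

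Promoters of 24 of the 30 members were found in the RefSeq table for GRCm38.p6, 30 windows of 300 bases from 250 before to 50 after a start site. Searched on both strands were TCACNCCAC, the core of a classic sterol regulatory element, CACGTG, an E-box that SREBP-1 can also bind, CCAAT, the NF-Y box, and GGGCGG, the Sp1 box. NF-Y and Sp1 are known partners of SREBPs. CCAAT was present in 73.3% of the members' windows and GGGCGG also in 73.3%, against 37.4% and 35.7% of all 32851 windows. TCACNCCAC was present in 1 member's window, that of Hmgcs1, and in 1.24% of all windows. CACGTG was present in 13.3% of the members' windows and 7.15% of all. A match is a description of letters and not a shown binding site.

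The promoters of 3 known SREBP targets are shown: Insig1 and Acss2, whose groups did not overlap, and Hmgcs1, whose interval was the narrowest. None of the 3 passed the test, and differences between genes were not tested. Capitals mark the matches to the searched motifs, in either strand, and no matches of different motifs overlapped. Insig1 lies at chr5:28071162-28071461, Acss2 at chr2:155517793-155518092 and Hmgcs1 at chr13:119690101-119690400, all on the plus strand of GRCm38.p6.
Insig1: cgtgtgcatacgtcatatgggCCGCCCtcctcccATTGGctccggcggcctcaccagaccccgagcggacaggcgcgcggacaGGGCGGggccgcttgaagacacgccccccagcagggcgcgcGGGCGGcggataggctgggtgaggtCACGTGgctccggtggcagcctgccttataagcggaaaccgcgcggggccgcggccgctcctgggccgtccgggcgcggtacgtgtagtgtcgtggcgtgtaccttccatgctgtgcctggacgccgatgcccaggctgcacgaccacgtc
Acss2: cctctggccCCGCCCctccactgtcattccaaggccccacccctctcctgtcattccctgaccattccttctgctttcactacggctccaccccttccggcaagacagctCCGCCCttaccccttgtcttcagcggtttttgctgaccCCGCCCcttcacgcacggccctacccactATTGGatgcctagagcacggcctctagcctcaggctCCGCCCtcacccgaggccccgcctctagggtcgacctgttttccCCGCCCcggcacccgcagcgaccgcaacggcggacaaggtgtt
Hmgcs1: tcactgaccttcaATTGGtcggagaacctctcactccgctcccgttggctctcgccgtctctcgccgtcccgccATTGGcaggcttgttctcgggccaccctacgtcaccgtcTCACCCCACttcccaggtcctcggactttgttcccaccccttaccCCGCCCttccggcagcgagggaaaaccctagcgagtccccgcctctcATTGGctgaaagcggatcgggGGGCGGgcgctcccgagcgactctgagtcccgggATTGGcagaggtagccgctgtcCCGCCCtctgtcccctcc
All 3 windows hold CCAAT and GGGCGG matches in 1 strand or the other. The CACGTG of Insig1 begins at position -101 from the start site, and the TCACNCCAC of Hmgcs1 at -137. The windows of Insig1 and Acss2 hold no TCACNCCAC, which says only that those letters are not within these 300 bases.

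Of the 8 fatty acid genes 6 were higher and 2 lower (53.2% of all genes were higher), with a median of 0.20. Acss2, which makes acetyl-CoA from acetate, read 10.28, 10.44 and 10.36 in knockout-labelled arrays A to C and 10.04, 10.20 and 9.78 in wild type A to C. The groups did not overlap, and the difference was 0.35 (SE 0.15, limma adjusted p = 0.902), 1.28-fold, with means of 10.36 ± 0.08 and 10.005 ± 0.21 (SD, n = 3 each). Both other probe sets of Acss2 were higher as well, by 0.17 and 0.35. Acly, which makes acetyl-CoA from citrate, differed by 0.22 (SE 0.17; 0.08 without wild type C) with overlapping groups, and its 4 other probe sets above the filter were higher too, by 0.08 to 0.38.

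Scd1, a stearoyl-CoA desaturase, read 9.08, 9.33 and 9.50 in knockout-labelled arrays A to C and 9.01, 9.01 and 8.94 in wild type A to C. All 3 wild-type arrays lay close together and below the others, with a difference of 0.32 (SE 0.16, limma adjusted p = 0.902). Its second probe set differed by 0.08 with overlapping groups. The related desaturase Scd2 read 13.19, 13.15 and 13.47 in the arrays labelled knockout and 12.68, 13.27 and 12.20 in wild type A to C. Wild type B was above 2 of the arrays labelled knockout, while wild type A and C were below all 3, so the difference of 0.56 (SE 0.24, limma adjusted p = 0.902) rested on those 2 arrays. The 2 other probe sets of Scd2 gave 0.58 and 0.38. Without wild type C the Scd2 difference was 0.30, and without wild type B it was 0.83.

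Acaca and Fasn, the carboxylase and the synthase at the centre of fatty acid synthesis, had overlapping groups. Acaca read 7.84, 8.005 and 8.37 in knockout-labelled arrays A to C and 7.54, 8.05 and 8.41 in wild type A to C, a difference of 0.07 (SE 0.26, limma adjusted p = 0.970). Fasn read 9.35, 9.23 and 9.33 in the arrays labelled knockout and 9.09, 9.38 and 8.91 in wild type A to C, a difference of 0.18 (SE 0.17, limma adjusted p = 0.902). For Acaca the spread within each group was wider than the difference. Fasn had an interval of -0.21 to 0.57 and read 0.07 without wild type C and 0.31 without wild type B.

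Elovl6 and Me1 were the fatty acid genes on the lower side. Elovl6, which lengthens palmitate, read 9.38, 9.10 and 9.21 in knockout-labelled arrays A to C and 9.56, 9.28 and 9.73 in wild type A to C, a difference of -0.29 (SE 0.17, limma adjusted p = 0.902), but 0.24 on the deposited signals and -0.19 without wild type C. Its 2 other probe sets were lower as well. Me1, the malic enzyme that supplies NADPH, read 7.96, 6.80 and 6.49 in the arrays labelled knockout and 7.83, 7.49 and 7.71 in wild type A to C. The array labelled knockout A was the highest of all 6 and B and C the lowest, so the difference of -0.59 (SE 0.36, limma adjusted p = 0.902) hid a wide spread (SD 0.77 against 0.17). Without the array labelled knockout A it was -1.03, and without C it was -0.29. Its second probe set gave -0.36.

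Where a gene had several probe sets, they did not always go the same way. The 29 members had 67 probe sets, of which 62 lay above the filter. Of 33 probe sets above the filter other than the brightest, 24 had the direction of the brightest. In 12 of the 19 genes with more than 1 probe set above the filter, all of those went 1 way. The groups were separate on 7 of the 62 (11.3%), against 8.74% of all probe sets above the filter. A second probe set of Lss was higher by 0.47 and 1 of Hsd17b7 by 0.36, both with separate groups, while the brightest probe sets of these genes gave 0.04. Hmgcs1 spread from -0.44 to 0.29 over its 5 probe sets. The brightest probe set of 5 members, Mvd, Fdft1, Lss, Hsd17b7 and Acly, carries a suffix that marks possible cross-hybridisation and may read related transcripts.

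**Figure D3:**
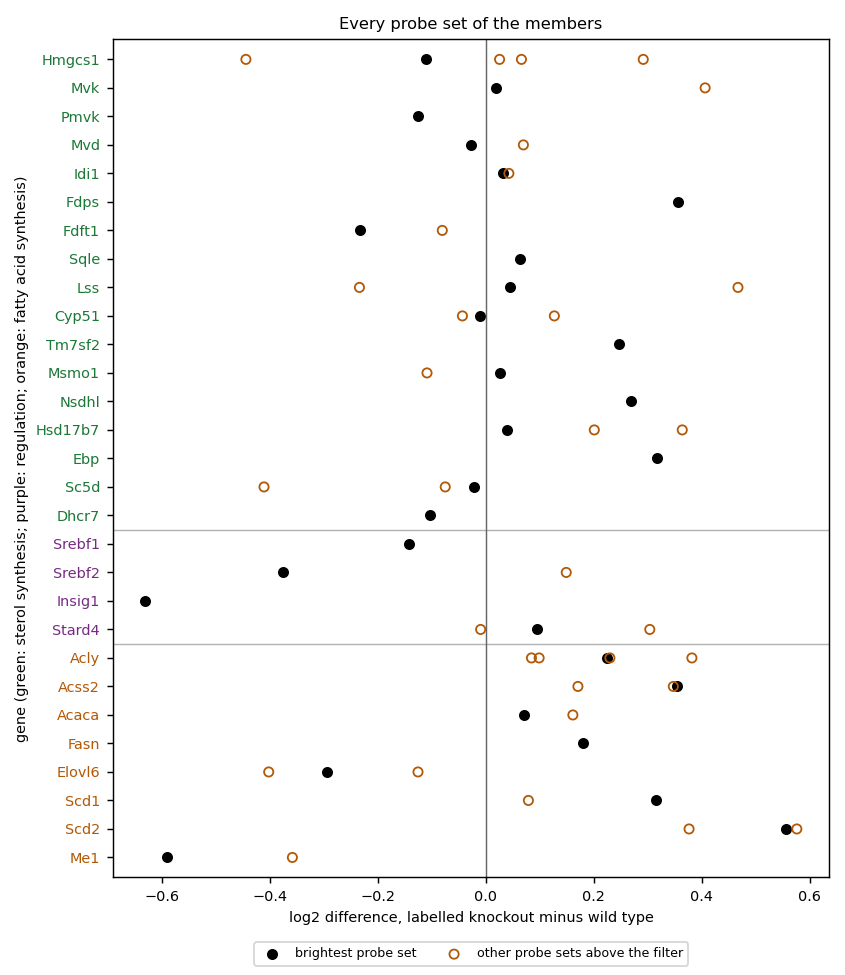
Log2 difference, labelled knockout minus wild type, for each probe set of the members above the filter; filled points are the brightest probe set used for the gene and open points the others. Probe sets of Acly, Acss2, Scd2, Elovl6 and Me1 lie on 1 side of 0, while those of Hmgcs1, Lss and Srebf2 fall on both sides.

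The wild-type values of most members ran in the order of the Gapdh ratio or in its reverse, and the part of that ratio in the member differences was not tested. Wild type C, with the highest Gapdh ratio, was the highest or the lowest of the 6 arrays for 22 of the 29 members (75.9%), against 63.1% of all genes. For Insig1, Srebf2, Elovl6, Mvk, Mvd, Fdft1, Dhcr7 and Srebf1, wild type C was highest, wild type A next and wild type B lowest of the group. For Scd2, Fdps, Idi1, Cyp51, Tm7sf2, Ebp, Stard4, Acly, Acss2 and Fasn the order was turned. Hmgcs1, Pmvk, Sqle, Lss, Msmo1, Nsdhl, Hsd17b7, Sc5d, Acaca, Scd1 and Me1 followed neither order. The share of all genes in either order was not counted. When wild type B alone served as the control, the difference was -0.23 (SE 0.21) for Insig1, 0.08 for Srebf2, -0.05 for Elovl6, 0.01 for Scd2 and -0.07 for Fdps. That of Acss2 was 0.16 and that of Ebp 0.09, whereas Scd1 kept 0.30 (SE 0.22) and Nsdhl 0.26.

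All 8 fatty acid genes had a smaller difference against wild type B alone, against 50.8% of all genes tested. Their median size went from 0.30 to 0.06, and that of all genes from 0.18 to 0.17. Of the 17 sterol enzymes 8 had a smaller difference (47.1%), and their median size went from 0.06 to 0.09, and to 0.14 with the Gapdh covariate. Over all members 19 of 29 were smaller (65.5%). With the Gapdh ratio as a covariate, 7 of the 8 fatty acid genes had a smaller difference, against 46.4% of all genes. So did 6 of the 17 sterol enzymes (35.3%) and 17 of all 29 members (58.6%). With that covariate Scd2 read -0.10 and Insig1 -0.26 (SE 0.25). Among the 29 members the direction turned for 13 in each of these settings (44.8%), against 46.3% and 49.2% of all genes. The Gapdh ratio and the genotype label move together, so that a covariate also takes up part of any difference between the genotypes.

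**Figure D4:**
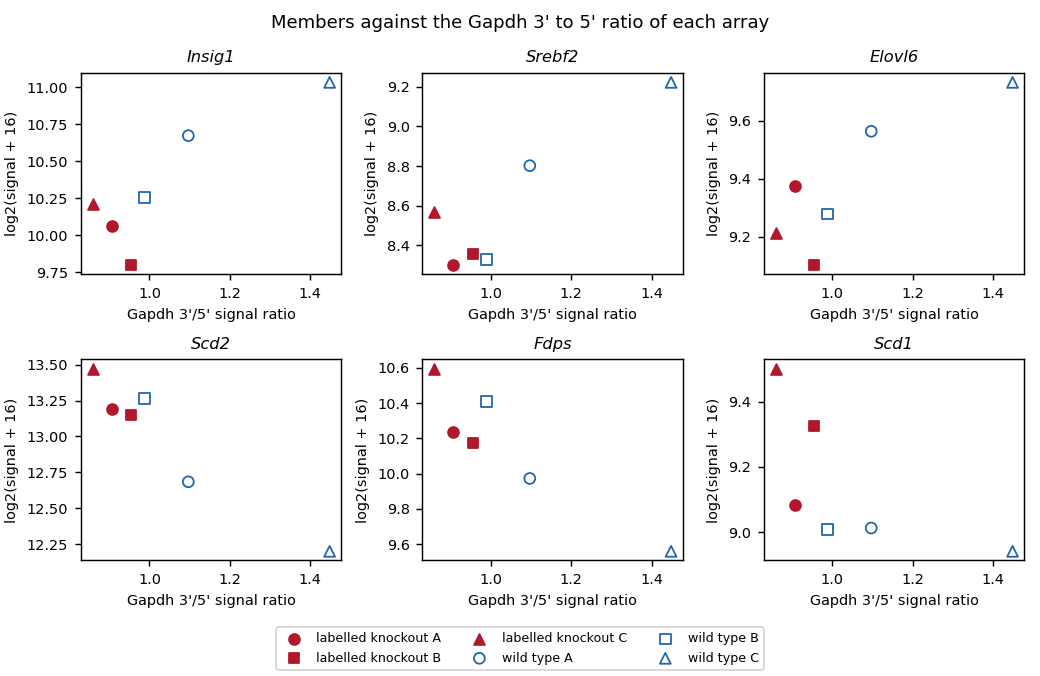
Value of 6 members, chosen after their values were seen, as log2(signal + 16) in each array against the ratio of 3' to 5' Gapdh control signals in that array; symbols give the genotype label and letter. Wild type B, at a ratio of 0.989, lies near the arrays labelled knockout for Srebf2, Elovl6, Scd2 and Fdps, and wild type A and C lie apart.

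**Figure D5:**
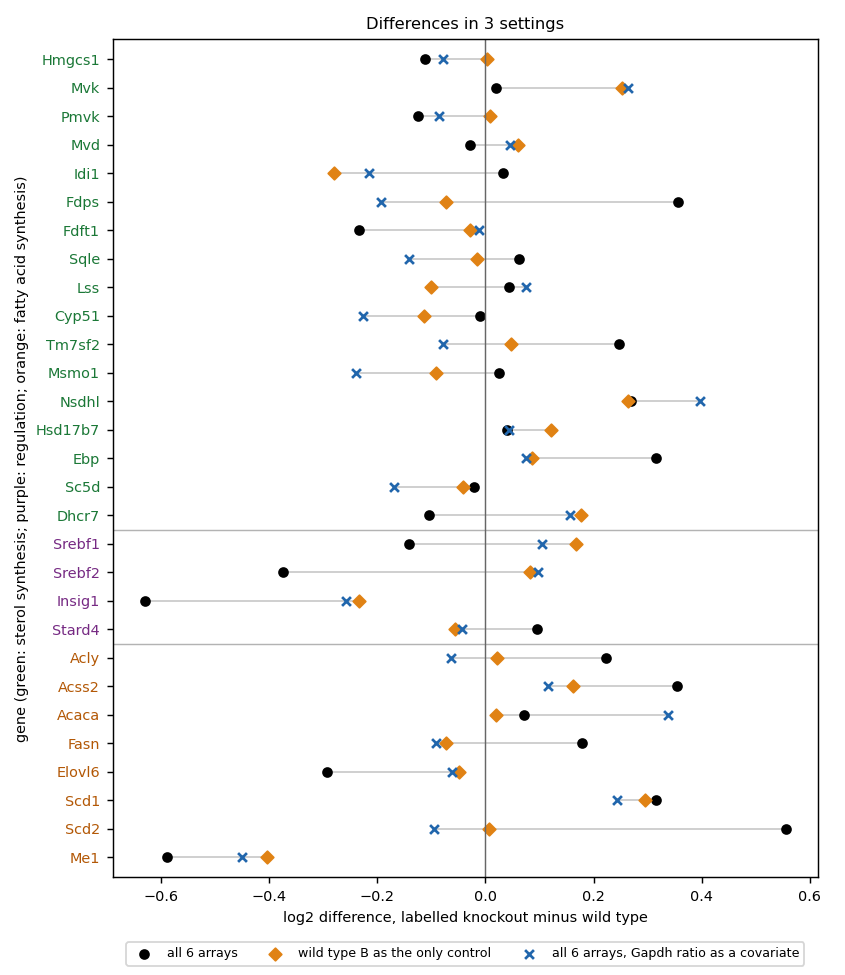
Log2 difference of each member with all 6 arrays (black circles), against wild type B alone (orange diamonds) and with the Gapdh ratio added as covariate (blue crosses). Scd2 goes from 0.56 to 0.01 and -0.10, while Scd1 goes from 0.32 to 0.30 and 0.24.

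Other genes of the pathways gave no call either, and no gene of 4 further lists passed in limma over all genes (0% of all genes passed). Of 11 measured genes listed under sterol synthesis and SREBP processing, 7 were higher and 4 lower, with a median of 0.18. That list was drawn broadly, and its genes, such as Acat1, need not serve sterol synthesis alone. Acat1, a mitochondrial thiolase, differed by 0.44 (SE 0.23), Lbr, a sterol reductase of the nuclear envelope, by 0.38 (SE 0.28), Hsd17b12 by 0.23 and Rnf139 by 0.18. Against wild type B alone Acat1 read -0.09 and Lbr -0.20. Of 13 genes of cholesterol efflux, esterification and LXR signalling, 5 were higher and 8 lower, with a median of -0.14. The efflux pump Abca1 differed by 0.50 (SE 0.29), the sterol sensor Osbp by -0.24, and the sterol export pair Abcg8 and Abcg5 by -0.30 and -0.48. The groups were separate for Osbp and Abcg8, 2 of the 13 (15.4%), against 9.06% of all genes. They were separate for 0 of the 11 genes listed under sterol synthesis and SREBP processing.

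Of 21 other genes of fatty acid and glyceride synthesis 13 were higher and 8 lower, with a median of 0.14. Groups were separate for 3 of the 21 (14.3%), against 9.06% of all genes. Elovl5, a fatty acid elongase, read 10.70, 10.63 and 10.87 in knockout-labelled arrays A to C and 10.21, 10.54 and 10.30 in wild type A to C, with separate groups and a difference of 0.38 (SE 0.15, limma adjusted p = 0.902). Acsl5, an acyl-CoA synthetase, differed by 0.30 with separate groups, the desaturase Fads1 by 0.40 and the NADP-dependent dehydrogenase Idh1 by 0.27. Of 17 genes of fatty acid oxidation and ketogenesis 13 were higher and 4 lower, with a median of 0.19. Groups were separate for 4 of the 17 (23.5%), against 9.06% of all genes. Hadh, a dehydrogenase of beta-oxidation, read 13.13, 13.09 and 13.13 in the arrays labelled knockout and 12.70, 12.78 and 12.90 in wild type A to C, a difference of 0.32 (SE 0.10, limma adjusted p = 0.902). The thiolase Acaa2 differed by 0.45 (SE 0.17) and Ehhadh by 0.35, and the groups were separate for all 3. Against wild type B alone these 3 genes read 0.34, 0.49 and 0.35. Pdk4, a kinase that limits pyruvate oxidation, read 6.02, 6.80 and 6.92 against 8.33, 6.07 and 8.98 in wild type A to C, so its difference of -1.21 (SE 0.67) rested on wild type A and C.

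Markers of other tissues were looked at because adipose or skin RNA would carry lipid synthesis transcripts. All 12 epithelial markers lay above the filter, and their summed signal was 88757 to 102317 in the arrays labelled knockout and 89857 to 104368 in wild type. A probe set named for the gene alone was found for 5 of 7 adipocyte markers and 7 of 8 of keratinocytes and sebaceous gland. One was found for 9 of 10 leukocyte, 7 of 10 pancreas, 9 of 10 enterocyte and 5 of 6 hepatocyte markers. Markers without one were not measured. Of 7 adipocyte markers 3 lay above the filter, with a summed signal of 48.3 to 122 and 33.7 to 118, and Adipoq and Lep were below it. Of 8 markers of keratinocytes and sebaceous gland 3 lay above it, with sums of 137 to 175 and 173 to 190, and Krt14, Krt1, Krt15 and Mc5r were below. Of 10 leukocyte markers 6 lay above it, and all 6 had a lower mean in the knockout-labelled group. Their sum was 668, 1503 and 980 in knockout-labelled arrays A to C and 1629, 766 and 2526 in wild type A to C. Wild type A and C, which stood apart for Insig1, Srebf2, Scd2 and Fdps, thus also held the most leukocyte signal, and its part in those values was not tested. Of 9 smooth muscle and fibroblast markers 7 lay above the filter, with sums of 835 to 2290 and 1104 to 1759. Of 10 markers of small intestinal enterocytes 5 did, with sums of 478 to 1246 and 484 to 1137, of 10 of the exocrine pancreas 2 did (1695 to 2313 and 1418 to 1890), and of 6 of hepatocytes 4 did (826 to 1804 and 965 to 1045).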

How the data were processed

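Mouse colonic mucosa RNA of 6 samples was measured on Affymetrix 3' arrays. The deposited table holds 1 linear intensity for each of 45101 probe sets and array, computed by the authors with MAS5 per the submitters' processing notes; the sources used here do not give its version or scaling. Array means differed, so signals were taken as log2(signal + 16) and quantile normalized. Tests left out 64 controls and every probe set whose mean fell below the 40th percentile (a signal of about 18.4). Symbols came from the platform annotation (34945 probe sets with 1 symbol, 932 with several, 9160 with none here), and the brightest probe set stood for each gene. Groups were compared over 12437 genes in limma 3.58.1 (R 4.3.3; lmFit, then eBayes with trend) and Benjamini-Hochberg adjustment. This procedure was checked on simulated data whose changes were larger than any member difference here. That check does not bear on changes of the members' size. The number of arrays, rather than a read depth, limits the precision.

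The members, the lists and the tests were chosen with earlier results of these data known. All members are named. Values in every array are given for the 10 members with the smallest p and for Srebf1, Srebf2, Insig1, Hmgcs1, Fasn and Acaca. Up to 4 genes of each other list with the smallest p are named. The members in the plot against the Gapdh ratio and the 3 promoters were chosen after their values were seen. Alternatives were other scalings, pseudocounts, filters and probe set rules, no variance trend, weighted arrays, a block on the replicate letter, leaving out each array, wild type B alone as control, and a Gapdh ratio covariate.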

Additional observations from a re-analysis of the deposited data

How the results depend on the processing

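No member passed in limma under any of the 18 alternatives, and the lowest adjusted p of a member ran from 0.0841 with array weights to 0.9997 without wild type C. At an unadjusted limma p under 0.05 there was 1 of 29 members with all arrays, beside 490 of all 12437 genes. Without wild type B there were 8, beside 2143 of all genes, on the signals as deposited 8, beside 2121, and with array weights 11, beside 2485. In these settings, unlike with all arrays, the members' share was above that of all genes, which was not tested. The other settings with at least 2 arrays per group gave 0 to 2 members. Over all genes limma called 0 (490 unadjusted), 1 on the signals as deposited, centred on array medians, with a pseudocount of 64 or with wild type B alone as control, and 29 with array weights; leaving out each array gave 0 to 6, the 6 without wild type B. The weights are gene-by-gene estimates (3.63 for wild type A, 0.324 for wild type C), chosen after the default estimator stopped before converging. With the replicate block limma called 3 genes, none a member. After each gene was centred within its group, same-lettered arrays correlated at -0.04, -0.11 and 0.45. Not every array correlated best with its own letter. Centring within such small groups ties these values to each other, so they cannot decide whether the letters mark pairs. The members' median was 0.50 as deposited and 0.26 centred on array medians, where the median of all genes was 0.43 and 0.20, and -0.063 with a Gapdh ratio covariate.

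The direction of some members turned, and the cause was not tested. On the signals as deposited, where 27 of 29 members and 90.5% of all genes were higher, Hmgcs1 read 0.21, Pmvk 0.38, Mvd 0.45, Fdft1 0.22, Cyp51 0.49, Sc5d 0.50, Dhcr7 0.42, Srebf1 0.38, Srebf2 0.14 and Elovl6 0.24. Centred on array medians, Pmvk read 0.14, Mvd 0.21, Cyp51 0.26, Sc5d 0.26, Dhcr7 0.19, Srebf1 0.15 and Elovl6 0.00033. With wild type B alone as control, Hmgcs1 read 0.0021, Pmvk 0.0082, Mvd 0.061, Idi1 -0.28, Fdps -0.073, Sqle -0.016, Lss -0.10, Msmo1 -0.091, Dhcr7 0.18, Srebf1 0.17, Srebf2 0.082, Stard4 -0.056 and Fasn -0.074. With a Gapdh ratio covariate, Mvd read 0.045, Idi1 -0.22, Fdps -0.19, Sqle -0.14, Tm7sf2 -0.079, Msmo1 -0.24, Dhcr7 0.16, Srebf1 0.10, Srebf2 0.097, Stard4 -0.043, Acly -0.064, Fasn -0.092 and Scd2 -0.095. With the mean of probe sets, Mvd read 0.021, Cyp51 0.024 and Msmo1 -0.042, and with array weights Sqle read -0.032, Msmo1 -0.091 and Hsd17b7 -0.040. Leaving out each array in turn, Mvk ran from -0.098 to 0.13, Mvd from -0.072 to 0.0047, Idi1 from -0.083 to 0.19, Sqle from -0.044 to 0.14, Lss from -0.094 to 0.12, Cyp51 from -0.099 to 0.066, Msmo1 from -0.094 to 0.086, Hsd17b7 from -0.035 to 0.10, Sc5d from -0.18 to 0.062, Dhcr7 from -0.24 to 0.045 and Acaca from -0.16 to 0.28. Insig1, Me1, Acss2, Scd1, Ebp and Nsdhl kept their direction under all of these.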
